A study of Mus musculus with 6 samples.

Results

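Glucose and monocarboxylate transporters are the carriers through which a cell takes up sugar and exchanges lactate, pyruvate and related acids. The 9 genes described here were chosen by symbol, out of 22601 genes in the deposited table, and comprise *Slc2a1*, *Slc2a3*, *Slc2a6*, *Slc2a8* and *Slc2a9* of the SLC2 (GLUT) family and *Slc16a1*, *Slc16a3*, *Slc16a6* and *Slc16a10* of the SLC16 (MCT) family. The data are RNAseq read counts from 3 wild-type (WT) and 3 *Slc37a2* knockout (KO) libraries, 1 animal each. *Slc37a2* encodes a sugar transporter of the osteoclast's secretory lysosomes, and the comparison asks whether its loss was accompanied by altered mRNA levels of the other carriers of sugars and of their breakdown products. KO mice were homozygous for the tm2a gene-trap allele, derived from 1 targeted embryonic stem cell clone of the Knockout Mouse Project, on a C57BL/6N background, and WT mice were their littermates. The allele is present in every tissue, macrophage precursors included, in which the level of *Slc37a2* was not measured here. The column headings give an age of 11 weeks and the letter F for every animal, and the libraries are named by the animal numbers in those headings (WT K090, L080 and L082, and KO K089, L078 and L081). According to the labels, bone marrow macrophages of both genotypes were cultured for 5 days with 10 ng/ml RANKL, the cytokine that drives osteoclast formation, and 2 ng/ml M-CSF, which sustains the precursors.

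GLUT proteins let hexoses cross a membrane down their concentration gradient, at the cell surface or on intracellular vesicles, and individual members differ in affinity and in cargo. The classical MCT proteins move lactate, pyruvate and ketone bodies together with a proton and need a membrane-spanning partner, basigin or embigin, to reach the cell surface, whereas other members of the SLC16 family carry amino acids, thyroid hormone or other cargo. Osteoclasts are large multinucleated cells that consume much energy, and both glycolysis and mitochondrial respiration serve their formation and their resorption of bone.

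The libraries held 27552183 to 42522292 counts. Levels are given as CPM, counts brought to a common library size with factors from the trimmed mean of M-values (TMM), and genotypes were compared with the quasi-likelihood test of edgeR, with Benjamini-Hochberg adjustment over the 13483 genes that passed the filter on low counts. *Slc37a2* itself was at 2149 ± 292 CPM (SD, n = 3) in WT and 38.1 ± 6.66 CPM (SD, n = 3) in KO libraries. The log2 fold change was -5.82 ± 0.20 (SE), at an adjusted p of 7.07e-04, and *Slc37a2* was the single gene that edgeR's quasi-likelihood test called at an adjusted p below 0.05 (0.00742% of the genes tested). The paper's methods describe RNA of whole femurs and tibias, whereas its Results name osteoclasts and the labels describe cultured osteoclasts. All 10 osteoclast markers were detected in every library, with summed levels of 38340 to 75628 CPM, and all 10 macrophage markers, with 5354 to 8455 CPM. Markers of red cells (at most 0.0707 CPM in sum, 2 of 8 listed genes in the table) and neutrophils (0.354 to 1.41 CPM, 6 of 9) were at or close to 0. Endothelial markers (4 of 5) summed to 3.18 to 5.84 CPM, most of it from *Kdr* at 2.83 to 4.88 CPM. The 10 stromal and osteoblast markers summed to 764 to 2220 CPM. *S100a8*, the single neutrophil marker that passed the filter on low counts and named after its values were seen, was at 0.601 to 0.833 CPM in WT and 0.294 to 0.488 CPM in KO libraries, with an unadjusted p of 0.0223 and 0.969 after adjustment in edgeR.

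All 9 transporters passed the filter on low counts, and none was called between genotypes by edgeR's quasi-likelihood test, its likelihood ratio test or DESeq2. Over all genes these tests called 1, 2 and 2 genes. At an unadjusted p below 0.05 the count was also 0 of 9 in each of these 3 tests, beside 0.712% of all genes in the quasi-likelihood test. A count of 0 of 9 is close to that share, and the share was not computed for the other tests. For none of the 9 did the 3 KO libraries lie entirely above or below the 3 WT libraries, which was the case for 4.31% of all genes tested. The fitted level was lower in KO for 7 transporters and higher for 2, and 56.2% of all tested genes had a lower fitted level. The median log2 fold change of the 9 was -0.16, beside -0.02 over all tested genes. Benjamini-Hochberg adjusted p-values from edgeR ran from 0.969 to 0.970. The precision differed between transporters. For 6 of 9 the 95% confidence interval lay within 0.6 of 0 on the log2 scale, whereas those of *Slc2a3* and *Slc2a6* reached beyond -1.5, the size that the study set as its limit. Every p-value sets a genotype difference against the variation between these 3 animals of each genotype, for which edgeR also draws on the other genes.

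**Figure D1:**
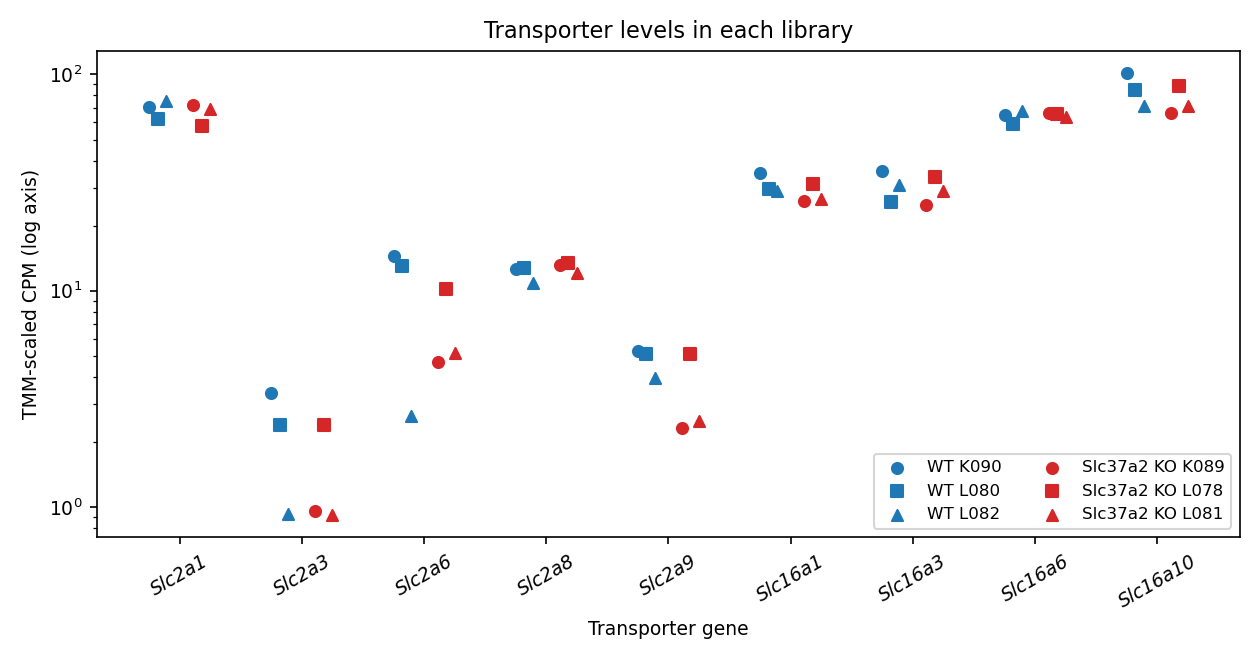
TMM-scaled CPM (log axis) of the 9 transporters, with 1 point per library, blue for WT and red for *Slc37a2* KO, and a marker shape for each library within a genotype. The red and blue points overlap for every transporter, and the points of *Slc2a3*, *Slc2a6* and *Slc2a9* are spread more widely than those of the others.

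Counts grow with gene length, so that levels of different transporters were compared as CPM per kilobase of annotated exon. *Slc2a1*, which encodes GLUT1, the carrier of basal glucose uptake in most cells, had the highest level, with a mean of 19.4 and a range of 16.5 to 21.5 CPM per kilobase over the 6 libraries. It was followed by *Slc16a6* at 13.2 (12.1 to 13.9) and *Slc16a10* at 10.98 (9.05 to 13.8) CPM per kilobase. The ranges of these 2 genes overlapped each other and lay below that of *Slc2a1*. *Slc16a1* at 6.68 (5.89 to 7.95) and *Slc16a3* at 5.64 (4.67 to 6.76) CPM per kilobase formed the next overlapping pair, below *Slc16a10*.

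*Slc2a8* had a level of 3.89 (3.37 to 4.20) CPM per kilobase, below the range of *Slc16a3*. *Slc2a6* followed at 2.60 CPM per kilobase, and its range of 0.820 to 4.49 spanned that of *Slc2a8* and met that of *Slc2a9*, at 0.794 (0.455 to 1.04) CPM per kilobase. *Slc2a3*, which encodes the high-affinity carrier GLUT3, was the lowest at 0.252 (0.127 to 0.463) CPM per kilobase and just reached the range of *Slc2a9*. When the longest coding transcript replaced all annotated exons, *Slc16a1* (6.68 CPM per kilobase) and *Slc16a3* (6.91) changed places, and no other transporter changed its rank. Some ranges that were apart then met. That of *Slc16a10* (12.3 to 18.8 CPM per kilobase) reached that of *Slc2a1* (17.8 to 23.1). The range of *Slc2a8* (5.13 to 6.39) overlapped those of *Slc16a3* (5.72 to 8.29) and *Slc16a1* (5.89 to 7.95). The longest coding transcript was chosen as an alternative after the data were seen.

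**Figure D2:**
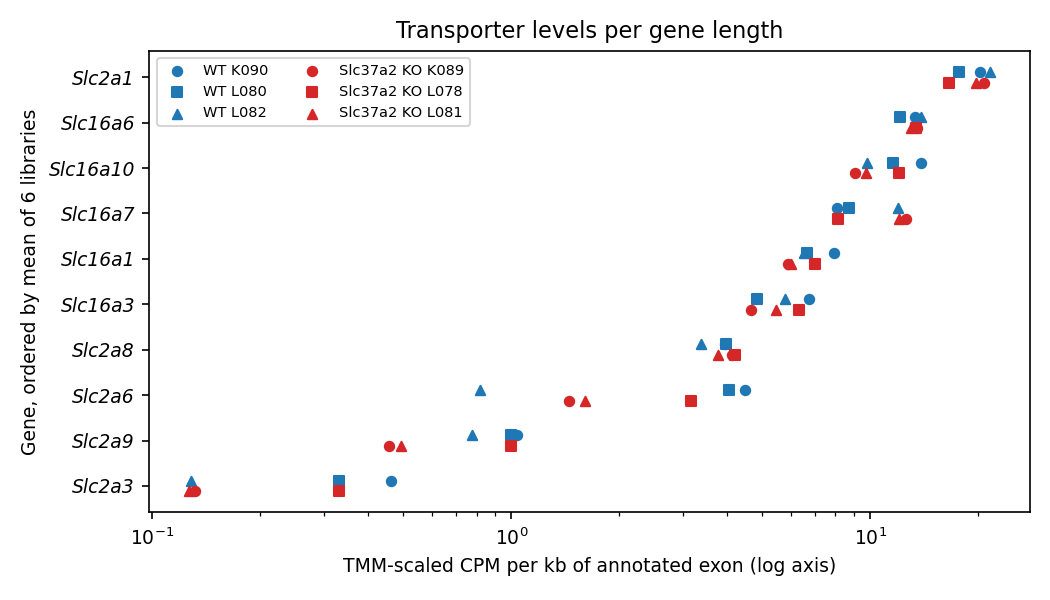
TMM-scaled CPM per kilobase of annotated exon (log axis) of the 9 transporters and of *Slc16a7*, ordered by the mean of the 6 libraries, with blue for WT, red for *Slc37a2* KO and a marker shape for each library. *Slc2a1* is at the top and *Slc2a3* at the bottom, and *Slc16a7* lies next to *Slc16a10*.

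*Slc2a1* lies on the plus strand of chr4:119108711-119137983 (GRCm38, as are all positions given here). It was at 71.0, 62.0 and 75.5 CPM in WT libraries K090, L080 and L082 and at 72.5, 57.9 and 69.2 CPM in KO libraries K089, L078 and L081. The lowest and the second highest value were both from KO libraries, so that the groups were interleaved. The means were 69.5 ± 6.87 and 66.5 ± 7.65 CPM (SD, n = 3 each), a log2 fold change of -0.06 with a 95% confidence interval of -0.33 to 0.21 (unadjusted p = 0.593 in edgeR's quasi-likelihood test).

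*Slc2a8* (minus strand of chr2:32972990-32982083) encodes GLUT8, which resides mainly on intracellular vesicles. It was at 12.6, 12.7 and 10.8 CPM in WT and at 13.2, 13.5 and 12.1 CPM in KO libraries. A pair of KO libraries had the highest values and WT L082 the lowest, while KO L081 lay below WT K090 and L080. The log2 fold change was 0.10, with an interval of -0.16 to 0.37 (unadjusted p = 0.382 in edgeR's quasi-likelihood test).

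*Slc2a6* (minus strand of chr2:27021363-27027998) encodes GLUT6, a carrier found on lysosomal membranes of macrophages. It was at 14.4, 13.0 and 2.63 CPM in WT libraries K090, L080 and L082 and at 4.66, 10.2 and 5.16 CPM in KO libraries K089, L078 and L081. The highest and the lowest value were both from WT animals, and they differed 5.47-fold. This difference lay outside counting error, since the 95% Poisson interval was 13.3 to 15.6 CPM for K090 (588 counts) and 2.09 to 3.27 CPM for L082 (82 counts). The highest value of all tested genes exceeded the lowest by a median of 1.34-fold, with a 95th percentile of 4.05-fold. The genotype means were 10.0 ± 6.43 and 6.67 ± 3.06 CPM (SD, n = 3 each), with a log2 fold change of -0.58 and an interval of -2.11 to 0.95 (unadjusted p = 0.392 in edgeR's quasi-likelihood test).

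*Slc2a3* (minus strand of chr6:122727809-122801640) was divided over the same libraries. It was at 3.36, 2.40 and 0.931 CPM in WT and at 0.954, 2.40 and 0.919 CPM in KO libraries, from 137, 68, 29, 26, 108 and 26 counts. WT K090 and L080 and KO L078 were high, and WT L082 and KO K089 and L081 were low. The Poisson intervals of the 3 high libraries (the lowest was 1.87 to 3.05 CPM, in L080) did not meet those of the 3 low libraries (the highest was 0.623 to 1.40 CPM, in K089). The log2 fold change was -0.63, with an interval of -2.02 to 0.76 (unadjusted p = 0.313 in edgeR's quasi-likelihood test).

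*Slc2a9* (minus strand of chr5:38349273-38503143) encodes GLUT9, known chiefly as a carrier of urate. It was at 5.27, 5.09 and 3.95 CPM in WT libraries K090, L080 and L082 and at 2.31, 5.08 and 2.51 CPM in KO libraries K089, L078 and L081. KO L078 was level with the 2 highest WT libraries, and the other KO libraries lay below every WT library. The means were 4.77 ± 0.716 and 3.301 ± 1.55 CPM (SD, n = 3 each). The log2 fold change of -0.52 (interval -1.33 to 0.29) had the lowest unadjusted p of the 9 transporters, 0.171, and an adjusted p of 0.969 from edgeR. An exact two-sided permutation test of *Slc2a9* over the 6 libraries gave p = 0.2, and 0.1 is the smallest value that 3 against 3 libraries can give.

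When KO L078 was left out, the log2 fold change of *Slc2a9* became -0.98, for which edgeR gave an unadjusted p of 0.00307 and 0.227 after Benjamini-Hochberg adjustment. The KO libraries of *Slc2a9*, *Slc16a1* and *Slc16a10* then lay below all WT libraries. Without L078, however, groups did not overlap for 41.6% of all genes tested, and 20.1% had an unadjusted p below 0.05. Leaving out WT L082 separated the groups for *Slc2a6* alone among the 9, with a log2 fold change of -1.01 (unadjusted p = 0.0327 and 0.825 after adjustment in edgeR), and for 16.4% of all genes. Leaving out KO L081 separated them for *Slc2a8*, the single transporter with higher KO values in such a separation, and for 6.98% of all genes.

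**Figure D3:**
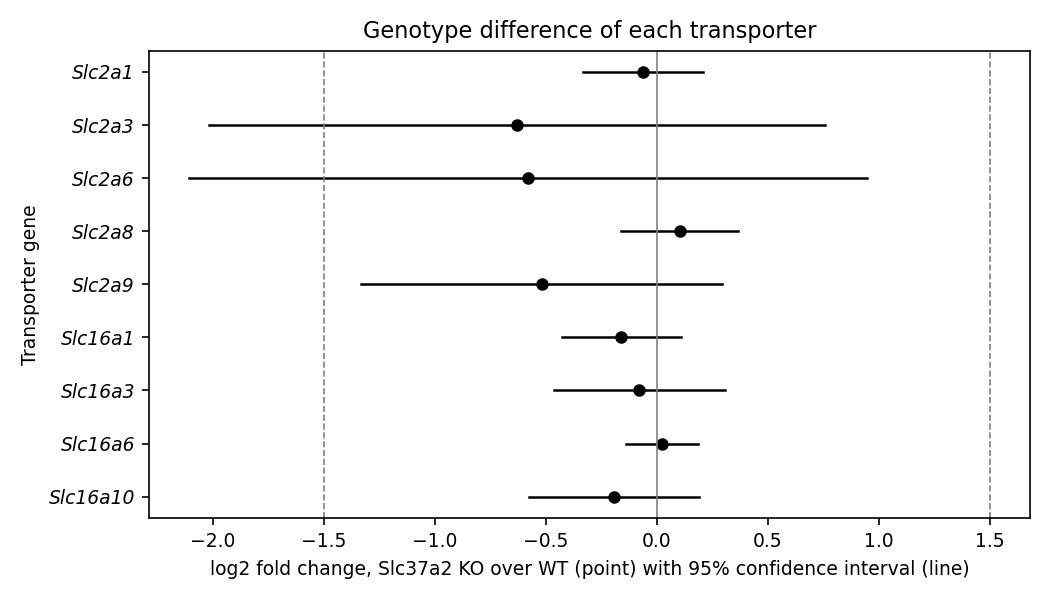
Genotype difference (log2, KO over WT) of each of the 9 transporters (points) with its 95% confidence interval (lines), and the study's limit of 1.5 in either direction (dashed). All 9 lines cross 0. The lines of *Slc2a3* (-2.02 to 0.76) and *Slc2a6* (-2.11 to 0.95) cross the dashed limit.

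*Slc16a1* (plus strand of chr3:104638668-104658462) encodes MCT1, which carries lactate and pyruvate in either direction in many cell types. It was at 35.2, 29.5 and 29.0 CPM in WT and at 26.1, 31.1 and 26.7 CPM in KO libraries. KO L078 lay above 2 of the 3 WT libraries and the other KO libraries below all 3. The means were 31.2 ± 3.44 and 27.9 ± 2.74 CPM (SD, n = 3 each), and the log2 fold change was -0.16, with an interval of -0.43 to 0.11 (unadjusted p = 0.198 in edgeR's quasi-likelihood test).

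*Slc16a3* (plus strand of chr11:120948480-120960868) encodes MCT4, the lactate exporter of highly glycolytic cells. It was at 35.9, 25.7 and 30.8 CPM in WT and at 24.8, 33.6 and 29.0 CPM in KO libraries. WT and KO values alternated from the highest library, WT K090, to the lowest, KO K089. The log2 fold change was -0.08, with an interval of -0.47 to 0.31 (unadjusted p = 0.636 in edgeR's quasi-likelihood test).

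*Slc16a6* (minus strand of chr11:109450855-109473598) encodes MCT7, for which transport of ketone bodies has been described. It was at 65.2, 59.3 and 67.7 CPM in WT libraries K090, L080 and L082 and at 66.1, 65.7 and 63.5 CPM in KO libraries K089, L078 and L081. All KO values fell between the lowest and the highest WT value, and the 6 libraries differed by at most 1.14-fold, the smallest spread among the 9 transporters. The means were 64.1 ± 4.33 and 65.1 ± 1.39 CPM (SD, n = 3 each). The 95% confidence interval of the log2 fold change of 0.02 (-0.14 to 0.18) corresponds to KO levels of 0.908 to 1.14 times the WT level. Of the exon sequence of *Slc16a6*, 1052 bp (21.5%) overlap *Amz2* on the opposite strand, and 105 bp (2.99%) of *Slc2a1* overlap *Gm12868*. Whether strand was used in counting is not given in the sources used here, so that reads from these stretches cannot be told apart.

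*Slc16a10* (minus strand of chr10:40033532-40142258) encodes TAT1, a carrier of aromatic amino acids rather than of monocarboxylates. It was at 102, 84.9 and 71.8 CPM in WT and at 66.6, 88.3 and 71.4 CPM in KO libraries. The libraries fell in the same order from high to low as for *Slc16a1* (K090, L078, L080, L082, L081, K089). The means were 86.1 ± 15.0 and 75.4 ± 11.4 CPM (SD, n = 3 each), and the log2 fold change was -0.19, with an interval of -0.57 to 0.19 (unadjusted p = 0.271 in edgeR's quasi-likelihood test).

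The division of the libraries seen for *Slc2a3* and *Slc2a6* was shared by some other genes and not by others. It was taken from the values of *Slc2a3* and *Slc2a6*, so that their place in the counts below was fixed beforehand. The share of all tested genes divided in this way was not computed, and the counts therefore have no background beside them. Of the 9 transporters 5 (*Slc2a3*, *Slc2a6*, *Slc2a9*, *Slc16a1* and *Slc16a10*) were higher in each of K090, L080 and L078 than in any other library, *Slc16a1* and *Slc16a10* by small amounts. The same held for 7 of 10 macrophage markers, while *Cd68* was lower in these 3 libraries and *Csf1r* and *Ccr2* followed neither pattern. *Adgre1*, which encodes the macrophage surface protein F4/80, was at 312, 272 and 80.02 CPM in WT libraries K090, L080 and L082 and at 64.4, 262 and 95.8 CPM in KO libraries K089, L078 and L081. The sum of the 10 macrophage markers was 8455, 7900 and 7825 CPM in K090, L080 and L078 and 5354 to 5879 CPM in the other libraries, and none of the 10 was at 0. Of 10 osteoclast markers 8 were lower in each of K090, L080 and L078 than in any other library, and *Calcr* and *Nfatc1* were not. The sum of the 10, to which *Mmp9*, *Acp5* and *Ctsk* contributed most, was 38340, 50558 and 41852 CPM in K090, L080 and L078 and 57806 to 75628 CPM in the others.

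The sum of 11 interferon response genes was 131, 61.2 and 75.5 CPM in K090, L080 and L078 and 13.0 to 26.2 CPM in the others, and all 11 were higher in each of the first 3 libraries. Other lists did not share the division. All 10 stromal and osteoblast markers, the 7 other SLC2 genes and the 6 neutrophil markers in the table followed neither pattern. Of 16 hypoxia response genes 1 was higher in each of the first 3 libraries, 6 were lower and 9 followed neither pattern. The marker genes in this comparison were named after their values were seen. These libraries are 2 of WT and 1 of KO animals, so that the division crosses genotype. In bulk RNA, fewer cells of a type and less RNA per cell cannot be told apart, and the part of the macrophage, osteoclast and interferon response genes in the values of these 5 transporters was not tested.

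**Figure D4:**
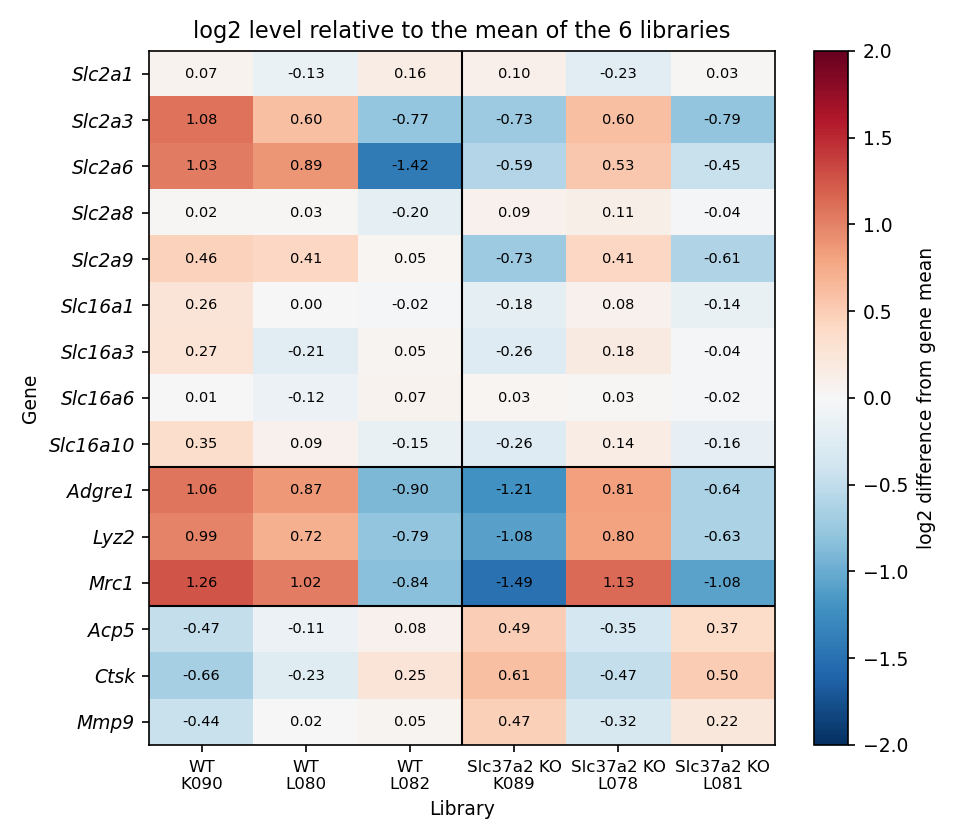
Log2 difference of each gene in each library from its mean over the 6 libraries, in colour and in numbers, for the 9 transporters (top), 3 macrophage markers (middle) and 3 osteoclast markers (bottom), with WT libraries left and *Slc37a2* KO libraries right of the line. *Slc2a3*, *Slc2a6* and the 3 macrophage markers shown are above their means in K090, L080 and L078 and below them in L082, K089 and L081, as are *Slc16a1* and *Slc16a10* with smaller differences. The macrophage markers shown are from the 7 of 10 that were higher in K090, L080 and L078, and *Cd68*, *Csf1r* and *Ccr2* are not shown. The osteoclast markers shown are from the 8 of 10 that were lower there, and *Calcr* and *Nfatc1* are not shown. *Slc16a6* stays within 0.12 of its mean in every library.

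Reference promoter sequences are shown for *Slc2a1*, *Slc16a1* and *Slc16a3*, whose products bring in glucose and exchange lactate and which are known targets of hypoxia-inducible factor or of MYC, and for *Slc2a6*, the transporter with the widest spread between libraries. The 250 bases before the start site (RefSeq, GRCm38.p6, in which 7 of the 9 transporters had an entry, *Slc2a3* and *Slc16a6* not among them) were searched on both strands for ACGTG, the core of the hypoxia response element, and for the E-box CACGTG, which contains it. Capitals mark ACGTG or, in *Slc16a1*, the E-box. The sequences are printed 5′ to 3′ on the strand of the gene, for *Slc2a1* without the last 30 bases before the start.
Slc2a1, chr4:119108495-119108714, plus strand: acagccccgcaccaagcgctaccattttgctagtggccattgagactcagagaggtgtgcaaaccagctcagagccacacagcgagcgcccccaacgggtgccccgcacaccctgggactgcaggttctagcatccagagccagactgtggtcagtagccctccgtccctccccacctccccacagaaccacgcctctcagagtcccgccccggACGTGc
Slc16a1, chr3:104638414-104638663, plus strand: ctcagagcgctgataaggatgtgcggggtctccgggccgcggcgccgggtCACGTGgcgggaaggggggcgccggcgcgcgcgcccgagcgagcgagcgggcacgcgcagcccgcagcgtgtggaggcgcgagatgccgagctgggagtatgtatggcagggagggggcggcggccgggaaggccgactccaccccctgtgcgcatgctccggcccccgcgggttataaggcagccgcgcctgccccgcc
Slc16a3, chr11:120948817-120949066, plus strand: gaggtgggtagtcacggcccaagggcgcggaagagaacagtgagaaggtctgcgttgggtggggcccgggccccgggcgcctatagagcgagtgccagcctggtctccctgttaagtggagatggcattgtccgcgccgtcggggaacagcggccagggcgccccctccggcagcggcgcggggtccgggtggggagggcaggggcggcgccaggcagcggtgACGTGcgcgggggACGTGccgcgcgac
Slc2a6, chr2:27027999-27028248, minus strand: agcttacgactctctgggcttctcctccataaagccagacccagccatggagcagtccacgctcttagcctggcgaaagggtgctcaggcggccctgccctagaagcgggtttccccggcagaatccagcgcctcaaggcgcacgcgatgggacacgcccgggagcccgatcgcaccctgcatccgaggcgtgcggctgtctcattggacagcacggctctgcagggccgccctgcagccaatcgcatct

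ACGTG occurred once in the promoter of *Slc2a1*, beginning 36 bases before the start, and in that of *Slc16a3* it began 27 and 14 bases before the start. In *Slc16a1*, 2 overlapping matches on opposite strands formed a single E-box 200 bases before the start. The promoters of *Slc2a6*, *Slc2a8*, *Slc2a9* and *Slc16a10* held neither motif within these windows. The window of *Slc2a1* runs 34 bases into the gene span given above, and its ACGTG lies across the first base of that span. The windows of *Slc2a9* (chr5:38483386-38483635) and *Slc16a3* lie inside the gene spans given above. For *Slc2a9* and *Slc16a3* the bases before the outermost annotated start were therefore not searched. Among 32851 promoters of the same length, 16.6% held ACGTG and 6.02% the E-box. These matches describe the letters of the reference sequence and are not evidence of binding.

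The remaining carriers of these families included *Slc16a7*, whose level per kilobase lay between those of *Slc16a10* and *Slc16a1*. It encodes MCT2, a carrier with high affinity for pyruvate and lactate, and had a mean of 10.3 CPM per kilobase (8.09 to 12.5 over the 6 libraries). *Slc16a7* was at 95.8, 103 and 141 CPM in WT libraries K090, L080 and L082 and at 148, 96.3 and 143 CPM in KO libraries K089, L078 and L081. It was thus high where *Slc2a3* and *Slc2a6* were low, and its log2 fold change was 0.18 (interval -0.33 to 0.70). Of 10 other SLC16 genes 5 passed the filter on low counts, and of 7 other SLC2 genes 2 passed, the higher of which, *Slc2a10*, had a mean of 1.39 CPM. None of the 7 that passed was called or had an unadjusted p below 0.05 in edgeR's quasi-likelihood test.

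*Emb* encodes embigin, the partner protein that MCT2 prefers, and was the highest of the 3 SLC16 chaperones on the CPM scale. It was at 347, 480 and 656 CPM in WT and at 812, 359 and 745 CPM in KO libraries, high in the same libraries as *Slc16a7*. The log2 fold change of *Emb* was 0.37 (interval -0.49 to 1.23). *Bsg*, which encodes basigin, the partner of MCT1 and MCT4, was named after its values were seen and had a log2 fold change of 0.09 (interval -0.14 to 0.33). None of the 3 chaperones was called or had an unadjusted p below 0.05.

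Genes that act before or after transport were tested in the same fit. Among sugar and pyruvate carriers of other families, 4 of 8 listed genes were tested, with 2 fitted higher and 2 lower and none called, and *Mpc2*, a subunit of the mitochondrial pyruvate carrier, was the highest, with a log2 fold change of 0.19 (interval -0.13 to 0.51). Of 12 regulators of glucose carriers 11 were tested and none was called, with 5 fitted higher and 6 lower. The highest of them was *Txnip*, whose product promotes the internalization of GLUT1. *Txnip* was at 281, 268 and 231 CPM in WT and at 225, 181 and 275 CPM in KO libraries, with a log2 fold change of -0.20 (interval -0.58 to 0.19).

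Of 8 enzymes that act on the transported sugars and acids 7 were tested and none was called, with 5 fitted higher and 2 lower in KO. *Ldha*, the lactate dehydrogenase subunit that favours lactate production, was the highest, with a log2 fold change of 0.05 (interval -0.20 to 0.30). *Hk3*, a hexokinase of myeloid cells, named after its values were seen, was the single gene with an unadjusted p below 0.05 among the lists of carriers, chaperones, regulators, enzymes and hypoxia response genes (0.0496, and 0.969 after Benjamini-Hochberg adjustment by edgeR). It was at 99.8, 92.0 and 67.6 CPM in WT and at 57.4, 76.2 and 59.5 CPM in KO libraries, so that the groups overlapped, with a log2 fold change of -0.42. All 16 hypoxia response genes outside the 9 transporters were tested, with 10 fitted higher, 6 lower, none called and none at an unadjusted p below 0.05. Their median log2 fold change was 0.01, and *Pdk1*, which restrains the entry of pyruvate into the mitochondrial citric acid cycle, was the highest, at 187 ± 14.8 CPM in WT and 193 ± 12.8 CPM in KO libraries (SD, n = 3 each).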

How the data were processed

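Whole-number read counts per gene of 6 libraries were analysed as the authors deposited them, not normalized. The labels name the mm10 (GRCm38) build, bcl2fastq 2.20.0.422 and edgeR 3.30.3, and sequencing was on an Illumina NovaSeq instrument. Of the aligner, the counting tool and its strand setting, the sources used here give nothing. The log2 fold changes, likelihood ratios, p-values and FDR values of the authors' own comparison stand beside the counts and were not used. Each column was assigned to its genotype by its heading, which carries no replicate number. Neither genotype held a pair of libraries that differed by as little as sampling noise (chi-square per degree of freedom of at least 7.00).

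The genotype comparison used edgeR 4.0.16 and limma 3.58.1 under R 4.3.3. Genes were filtered by filterByExpr with its defaults, libraries were scaled by TMM factors (0.931 to 1.06), and genotype alone was fitted by glmQLFit and tested by glmQLFTest. P-values of the 13483 tested genes were adjusted together by the Benjamini-Hochberg method. Scripts were tested on simulated data. The SE of each log2 fold change was derived from the fitted estimate and the F statistic of its quasi-likelihood test. Confidence intervals (95%) were computed from each fitted estimate and this SE. Poisson intervals cover counting error only, since without molecular identifiers reads may be copies of 1 molecule. Positions and exon lengths come from GENCODE M21, and figures were drawn with Python 3.11.15. Alternatives were DESeq2 1.42.0, edgeR's likelihood ratio test, other scalings and filters, the letter of the animal number (K or L) as a term, and each library left out. The members and lists were chosen with earlier results of these data known. All 9 transporters are named, and from each list of related carriers, chaperones, regulators, enzymes and hypoxia response genes the gene with the highest mean level, any gene called, and up to 2 genes whose groups did not overlap. No tested gene met the last 2 criteria. The groups of *Slc2a5* did not overlap, but it had at most 4 counts in a library and did not pass the filter on low counts. Cell type markers were outside this rule. A likeness of patterns by correlation was intended and is not given, because the libraries fell into separate sets.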

Additional observations from a re-analysis of the deposited data

How the results depend on the processing

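No transporter was called at an adjusted p below 0.05 in the main analysis or in any of 13 alternatives, and the lowest adjusted p of a transporter in any of them was 0.227 (*Slc2a9* without KO L078, edgeR's quasi-likelihood test). Under other scalings, filters and tests and with the heading letter as a term, 63 of 63 log2 fold changes of the 9 transporters kept their direction. With a library left out, 49 of 54 did. The other 5 were *Slc2a1* without L082 (0.0259) or L078, *Slc16a3* without K090 or K089 (0.0445), and *Slc16a6* without L080. *Slc2a1* ran from -0.139 without L080 to 0.0277 without L078, *Slc16a3* from -0.197 without L078 to 0.0474 without K090, *Slc16a6* from -0.0299 without L080 to 0.0891 without L082, *Slc2a3* from -1.26 without L078 to -0.201 without K090, *Slc2a6* from -1.03 without L078 to -0.22 without K090, *Slc2a9* from -0.983 without L078 to -0.303 without K089, *Slc2a8* from 0.0557 without L082 to 0.168 without L081, *Slc16a1* from -0.245 without L078 to -0.0641 without K090, and *Slc16a10* from -0.322 without L078 to -0.0536 without K090. The median of the 9 lay between -0.245 (without L078) and -0.0536 (without K090), and *Slc37a2* between -5.94 and -5.69. The number of transporters whose groups did not overlap was 0 to 3 with a library left out, an alternative chosen after the data were seen. No paired analysis was possible because the column headings carry animal numbers and no replicate number. With 3 animals a genotype and a biological coefficient of variation of 20.8%, differences within the intervals given remain compatible with these data. The intervals are widest for *Slc2a3* and *Slc2a6*. The smallest difference that could have been detected was not computed.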
